A study of Rosa roxburghii with 15 samples.

Results

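TRINITY_DN137108_c0_g1 and TRINITY_DN143182_c1_g1, written below without their common prefix, were the 2 unigenes, of 63727 in the assembly of Rosa roxburghii, whose best database matches were named MYB domain protein 15 and MYB13, and neither match named a species. Both came from the list of 163 MYB transcription factor unigenes that the study drew from its annotation. They were selected on their mean FPKM in the tissues, the former for a high level in stem and the latter for a low level in mature against young fruit, so those levels are described here and carry no test. Levels were measured by RNA-seq in 15 libraries of healthy wild plants grown in pots outdoors, 3 libraries per tissue. The tissues were mature leaves without petioles, stems from new shoots, fully open flowers, and fruit picked 50 days (young fruit) or 120 days (mature fruit) after bloom. The harvest was in May for leaf, stem and flower, in July for young fruit and in September for the mature stage, so fruit stage or tissue and month of harvest cannot be told apart wherever fruit is compared. The plants received no stress treatment, and no marker of a tissue or cell type could be set, since the sources name MYBs only.

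MYB proteins bind DNA through a domain built of imperfect helix-turn-helix repeats, and most of the plant family carries a pair of them, R2 and R3. In Arabidopsis, MYB13, MYB14 and MYB15 form a small subgroup of R2R3 proteins. Arabidopsis MYB15 is known for its part in responses to cold and drought, where it acts on the CBF genes of cold acclimation, and for switching on lignin genes during defence. Its homologs in grapevine activate stilbene synthase genes under stress. Arabidopsis MYB13 is less well described and has been linked to wounding, dehydration and light. The role of either unigene in R. roxburghii is not known from the sources used here, and the motif search of the study filed DN137108_c0_g1 among the atypical MYB-like proteins.

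Expression was given as FPKM, the reads of a unigene relative to its length and to the reads of the library, so levels may be compared between unigenes. The sum of FPKM per library was 490161 to 563597, and 36317 to 44904 unigenes lay above 0. On the log2(FPKM + 0.1) scale, Pearson's r across unigenes, which are not independent replicates, was 0.943 to 0.967 within tissues and 0.729 to 0.903 between tissues. Values below 0.15 FPKM fell in steps, and these steps put the relative depth of libraries of the same tissue within a factor of 1.02 to 1.48. The values used here are not read counts, so no sampling error was computed for a single level. Mature fruit libraries 2 and 3 shared 2792 unigenes that were listed at 0 in all other libraries, against 68 for libraries 1 and 2 and 62 for libraries 1 and 3. Mature fruit library 1 also stood apart among unigenes with a mature fruit mean of at least 1 FPKM. It was under both other libraries by a factor of more than 3 in 1323 of them (5.92%). The share was 0.805% for library 2 and 1.44% for library 3. In a tissue, fewer cells that use a gene and less RNA per cell cannot be told apart.

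DN137108_c0_g1, the MYB15 homolog, was a stem unigene in these libraries. In stem its levels were 4.56, 4.48 and 4.69 FPKM, with a mean of 4.58 ± 0.108 (SD, n = 3) and a coefficient of variation of 2.36%. In leaf they were 0.0824, 0.252 and 0.446 FPKM. The 3 stem libraries were nearly level, and the lowest of them lay 10.03 times above the highest leaf library. In flower the levels were 0.178, 0.118 and 0.417 FPKM, and in young fruit 0.173, 0.263 and 0.174 FPKM. Leaf, flower and young fruit overlapped with each other, so no order among them can be read from these libraries. In mature fruit library 1 the level was 0.113 FPKM, and libraries 2 and 3 listed the unigene at 0. All 3 mature fruit libraries were below all 3 young fruit libraries, the lowest of which was 0.173 FPKM. Mature fruit overlapped with leaf.

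Stem held 86.1% of the summed tissue means of DN137108_c0_g1. As differences of mean log2(FPKM + 0.1), stem was above leaf by 3.84, above flower by 3.89 and above young fruit by 3.96. These differences shrink with a larger pseudocount, and that from leaf was 2.16 with a pseudocount of 1. The tissue index tau, which is 0 for an even level and 1 for a unigene found in a single tissue, was 0.960 on mean FPKM and 0.903 on log2(FPKM + 1). On mean FPKM that was rank 5 among the 142 MYBs above 0.1 FPKM in at least 3 libraries, whose median tau was 0.697, and 85.0% of all such unigenes had a lower tau. Even so the stem level was moderate for a MYB, at rank 66 of 163, and in the other tissues the ranks were 104 to 119.

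DN143182_c1_g1, the MYB13 homolog, was present in all tissues up to young fruit and at or near 0 in mature fruit. In flower its levels were 14.7, 18.8 and 22.4 FPKM, with a mean of 18.6 ± 3.85 (SD, n = 3). In young fruit they were 3.69, 17.2 and 17.5 FPKM, with a mean of 12.8 ± 7.90. Libraries 2 and 3 of young fruit lay within the range of flower, whereas library 1 lay in the range of leaf and below all stem libraries. In stem the levels were 4.85, 6.93 and 5.70 FPKM, and in leaf 4.40, 3.64 and 6.70 FPKM. Flower was above both without overlap, while stem and leaf overlapped. In mature fruit, library 2 gave 0.840 FPKM and libraries 1 and 3 listed the unigene at 0. All 3 mature fruit libraries were therefore below the lowest library of any other tissue.

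**Figure D1:**
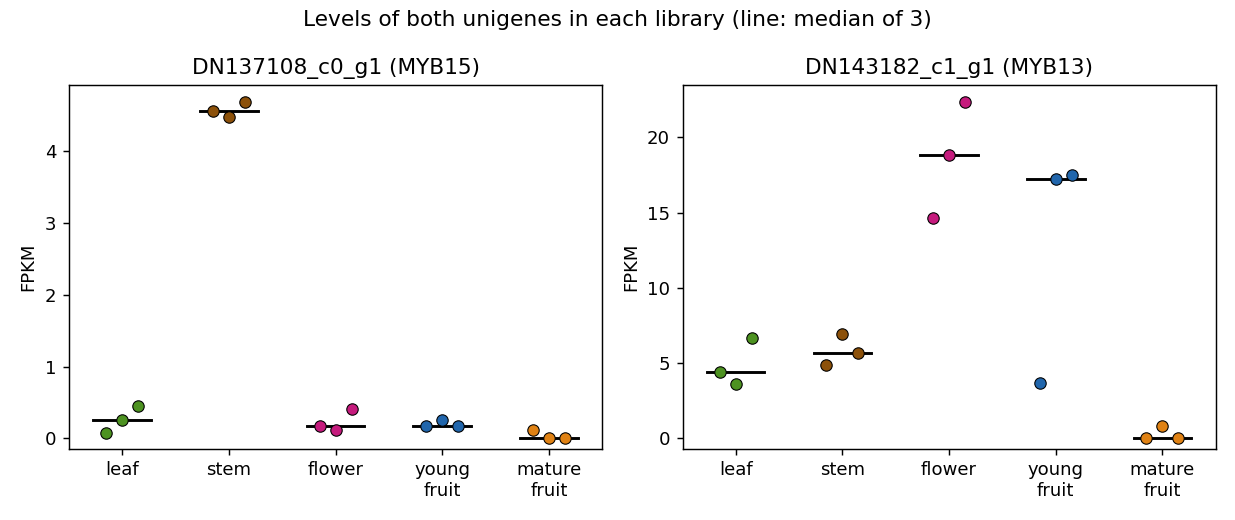
FPKM (linear axes) of DN137108_c0_g1 on the left and DN143182_c1_g1 on the right in each of the 15 libraries, as points in the order of library 1, 2 and 3 within each tissue, with the median of the 3 as a line. The stem libraries of DN137108_c0_g1 sit between 4.48 and 4.69 FPKM with all others below 0.5, and young fruit library 1 of DN143182_c1_g1 sits at 3.69 FPKM, well under 17.2 and 17.5 in libraries 2 and 3.

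By tissue medians, DN143182_c1_g1 ran from flower (18.8 FPKM) through young fruit (17.2), stem (5.70) and leaf (4.40) to mature fruit, which was listed at 0. Neighbours in this order overlapped except leaf and mature fruit. As a difference of mean log2(FPKM + 0.1), mature fruit was below young fruit by a value of -5.64, and this size depends on the pseudocount because of the zeros, with -3.25 at a pseudocount of 1 and -7.88 at 0.01. Flower exceeded young fruit by 0.81 on the same scale, and by 0.08 without young fruit library 1. Tau was 0.680 on mean FPKM, rank 73 of the 142 MYBs and near their median, and 0.448 on log2(FPKM + 1). Its level was high for a MYB in flower (rank 18 of 163) and young fruit (rank 29), intermediate in leaf (rank 50) and stem (rank 58), and at rank 86 in mature fruit.

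The gap within young fruit was wide for a unigene of this level. The highest of the 3 libraries was 4.74 times the lowest, and of 8969 unigenes with a young fruit mean of 5 to 25 FPKM and no library at 0, 53 (0.591%) had a ratio at least as large, with a median ratio of 1.27. Young fruit library 1 did not stand apart in general. It was under both other libraries by a factor of more than 3 in 225 unigenes (0.979% of those with a mean of at least 1 FPKM), against 264 such unigenes for library 2 and 229 for library 3. DN137108_c0_g1 stood at 0.173, 0.263 and 0.174 FPKM in libraries 1, 2 and 3. These levels are too low for a comparison with the gap in DN143182_c1_g1.

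**Figure D2:**
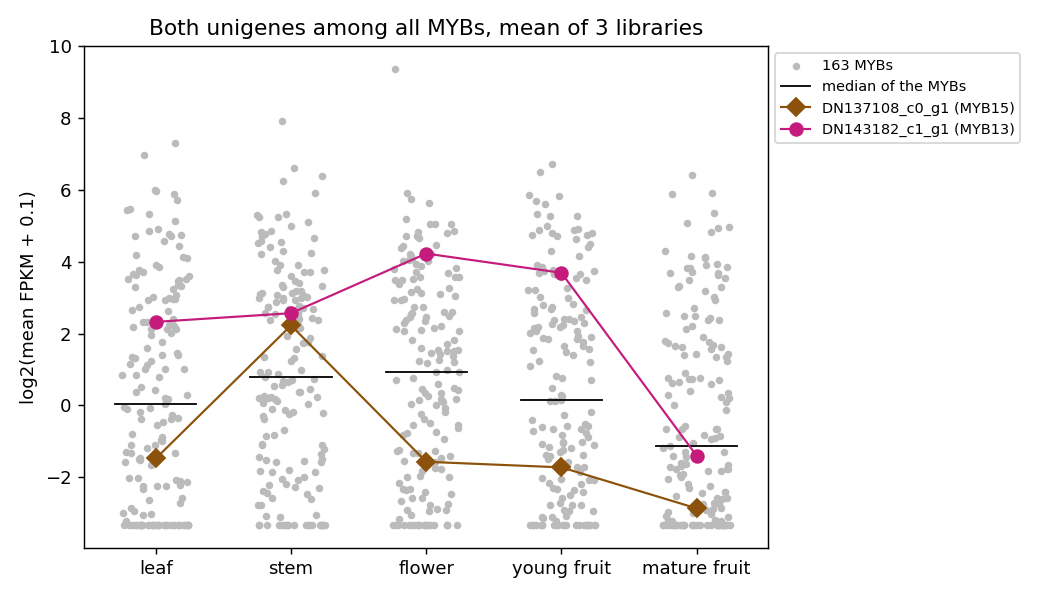
Mean of 3 libraries per tissue on the log2(mean FPKM + 0.1) axis for all 163 MYBs (grey points, spread sideways at random), their median (line) and the 2 homologs (joined symbols). The MYB15 homolog is above the median of the MYBs in stem and below it in the other tissues, and the MYB13 homolog is above it everywhere except in mature fruit.

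The homologs differed from each other by tissue rather than by a fixed factor. In stem the ratio of DN143182_c1_g1 to DN137108_c0_g1 was 1.06, 1.55 and 1.21 in the 3 libraries, so both were at about the same level there. In leaf the ratio was 53.3, 14.5 and 15.02, in young fruit 21.4, 65.7 and 101, and in flower 82.3, 160 and 53.7. The stem ratios lay below those of all leaf, flower and young fruit libraries. This follows in part from the choice of DN137108_c0_g1 for its stem level. The ratios in leaf, flower and young fruit rest on low values of DN137108_c0_g1, from 0.0824 to 0.446 FPKM. In mature fruit no ratio above 0 could be formed, because each library listed at least 1 of the homologs at 0. Over the 15 libraries Pearson's r between both homologs on the log2 scale was 0.34, where libraries of the same tissue share their tissue and are not independent.

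The MYBs whose pattern was most like DN137108_c0_g1 were all highest in stem, which follows largely from the choice of that unigene for its stem level. Likeness was measured as Pearson's r of log2(FPKM + 0.1) over the 15 libraries, and 3 of 141 other MYBs, and 267 of 51174 unigenes, reached an r of 0.9. DN121791_c0_g1, a homolog of MYB4, which represses phenylpropanoid genes in Arabidopsis, had an r of 0.93 and stood at 1.24, 1.31 and 1.04 FPKM in stem, while all leaf, flower and mature fruit libraries listed it at 0. Its r was 0.80 with a pseudocount of 0.01 and 0.98 with one of 1. DN144656_c3_g2 (MYB-like protein X) also had an r of 0.93, with 60.02 ± 5.66 FPKM in stem and 14.9 to 29.3 in the means of the other tissues. DN143203_c0_g1, a homolog of MYB44, which takes part in abscisic acid signalling in Arabidopsis, had an r of 0.92 and stood at 96.9 ± 1.44 FPKM in stem and 17.8 to 31.7 in the others. DN148711_c6_g3 (MYB-like protein Q) followed with an r of 0.85 and DN146459_c2_g11 (MYB82-like) with 0.83. At the other end, DN146332_c2_g2, a homolog of the snapdragon flower symmetry gene DIVARICATA, had an r of -0.93, because it was lowest in stem at 10.1 ± 0.675 FPKM against 14.4 to 17.0 in the other tissues. DN143733_c1_g1, named only as a putative MYB of Rosa rugosa, came next with an r of -0.60.

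The MYBs nearest to DN143182_c1_g1 shared its low level in mature fruit, which follows largely from the choice of that unigene for this level. Of 141 MYBs 2 reached an r of 0.9, and of 51174 unigenes 124 did so, whereas 225 had an r of -0.9 or lower. DN146459_c2_g1, a homolog of the trichome regulator MYB82 of Arabidopsis, had an r of 0.96. It stood at 49.2 ± 2.83 FPKM in flower, 26.1 ± 1.64 in young fruit, 16.3 ± 0.220 in stem, 13.6 ± 1.34 in leaf and 0.306 ± 0.283 in mature fruit, the same order of tissues as DN143182_c1_g1. A second MYB82-like unigene, DN148549_c3_g4, had an r of 0.94 and went from 11.7 ± 1.82 FPKM in flower and 11.1 ± 1.16 in young fruit to 0.221 ± 0.192 in mature fruit. Both were even across the young fruit libraries, where DN143182_c1_g1 was not, with 24.8, 28.0 and 25.6 FPKM for the former and 10.7, 12.4 and 10.2 for the latter. DN146126_c4_g1 had an r of 0.85 and is a homolog of ETC1, a single-repeat MYB that represses trichomes in Arabidopsis. DN143137_c2_g1, a homolog of the flowering repressor EFM, had an r of 0.84, and DN146433_c2_g3, a homolog of the secondary wall regulator MYB46, had an r of 0.83. The lowest values were -0.75 for DN143733_c1_g1, which had its highest mean, 19.7 ± 1.91 FPKM, in mature fruit, and -0.72 for DN145308_c4_g5 (WER-like).

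**Figure D3:**
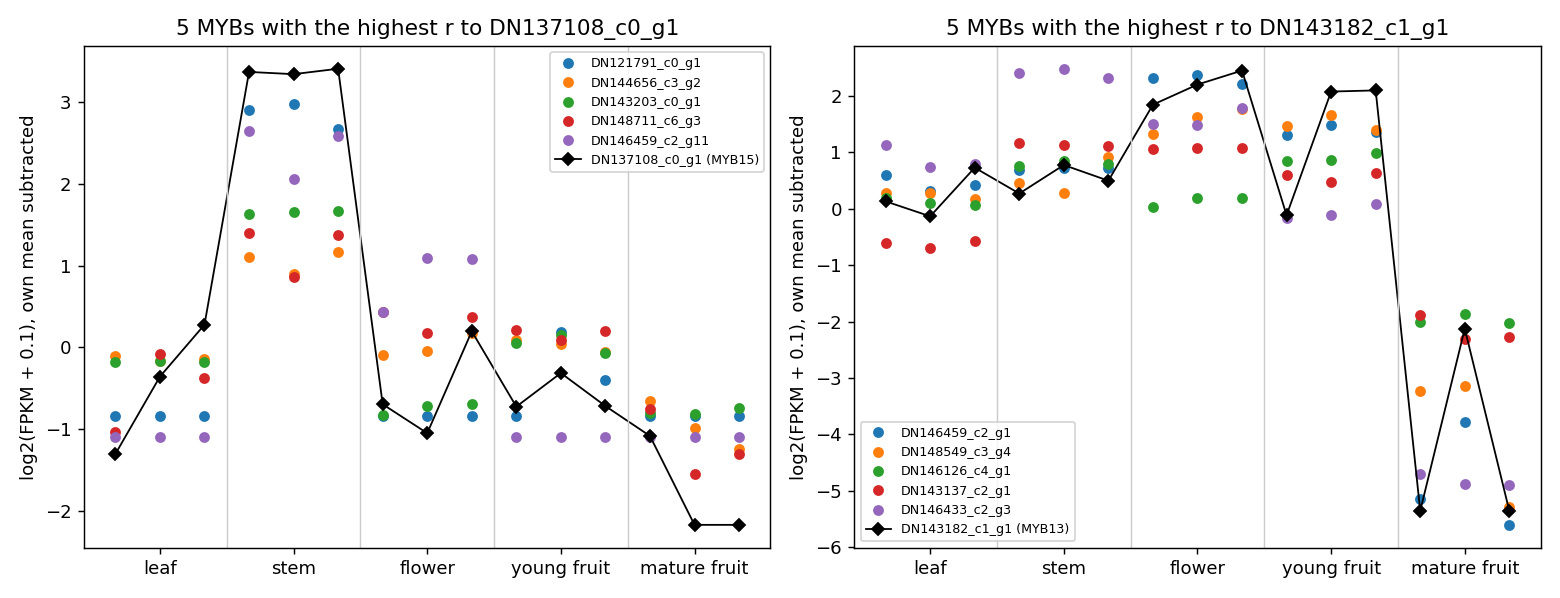
Profiles over the 15 libraries of DN137108_c0_g1 (left) and DN143182_c1_g1 (right), as black diamonds, and of the 5 MYBs with the highest r to each, as coloured points. The vertical axes give log2(FPKM + 0.1) with the mean of each unigene over the 15 libraries subtracted, and grey lines part the tissues. On the left all 6 unigenes are highest in stem, and on the right all 6 are lowest in mature fruit. Both features follow largely from the levels for which the homologs were chosen.

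DN137108_c0_g1 was the only unigene listed for its Trinity component, the unit in which the assembler groups transcripts that share sequence. DN143182_c1_g1 had 14 others in its component, 11 of them in the same cluster, and reads may be shared or split between such unigenes. Of the 14, 3 are in the list of MYBs, namely DN143182_c1_g10 (MYB306-like), DN143182_c1_g11 (MYB82-like) and DN143182_c2_g1 (MYB90). DN143182_c2_g1 and DN143182_c0_g1 were listed at 0 in every library, and 7 of the 14, these included, stayed below 1 FPKM in all libraries. DN143182_c1_g1 held 57.3% to 68.9% of the summed FPKM of the component in the flower libraries, 13.3% to 19.3% in leaf, 15.7% to 20.5% in stem and 0% to 6.29% in mature fruit. In young fruit it held 16.0% in library 1, 50.1% in library 2 and 45.4% in library 3.

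Because these other unigenes were not used in the choice of DN143182_c1_g1, their tissues were compared with limma on log2(FPKM + 0.1), with all 15 libraries in a single fit. A unigene was called at an adjusted p (Benjamini-Hochberg over all 51175 tested unigenes within a pair of tissues) of at most 0.01 with a log2 fold change of 1 or more in size. The p-values measure the spread between libraries, which may be technical in part. Of the 14, 12 were tested and 8 were called in at least 1 of the 10 pairs of tissues, while 69.8% of all tested unigenes were so called. The count was 5 when at least 1 FPKM in 3 libraries was required.

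DN143182_c1_g12, which carries no description in the sources used here, was the highest unigene of the component in leaf, stem and young fruit library 1. It stood at 16.3 ± 1.66 FPKM in stem, 8.73 ± 1.17 in leaf and 9.93 ± 1.23 in young fruit, against 0.451 ± 0.0516 in flower and 0.411 ± 0.0870 in mature fruit. In flower against stem its log2 fold change was -4.89 (SE 0.16, adjusted p = 3.58e-10 by limma), in the tissue where DN143182_c1_g1 was highest, and 8.94% of all tested unigenes were called lower in this pair. In mature against young fruit DN143182_c1_g12 fell by 4.30 on the log2 scale (SE 0.16, adjusted p = 2.15e-10 by limma). Its young fruit levels were even, from 8.53 to 10.8 FPKM. All 6 of its calls were kept whichever single library was left out.

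DN143182_c1_g6, also without a description, had its highest level in mature fruit. It stood at 3.41 ± 0.198 FPKM in leaf, 3.70 ± 0.583 in stem, 5.11 ± 0.329 in flower, 5.93 ± 0.461 in young fruit and 9.16 ± 0.438 in mature fruit, where it was the highest unigene of the component in all 3 libraries. It was higher in mature fruit than in leaf (log2 fold change of 1.40, SE 0.11, adjusted p = 1.96e-07 by limma) and than in stem (1.29, SE 0.11, adjusted p = 5.82e-07 by limma), where 18.2% and 12.3% of all tested unigenes were called higher.

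Further unigenes of the component had their highest level in leaf. DN143182_c1_g5 ranged from 2.47 to 5.66 FPKM in leaf, with 0.477 FPKM as its highest value in any other tissue, and was listed at 0 in all fruit libraries. DN143182_c1_g2 was listed at 0 in the same fruit libraries and ranged from 0.660 to 1.52 FPKM in leaf and from 0.382 to 0.557 in flower, and the pair of leaf and flower was not called (limma adjusted p = 0.161). Of its 5 calls 3 were leaf above stem or fruit and 2 were flower above fruit. All 4 calls of the former and all 5 of the latter were kept whichever single library was left out. DN143182_c1_g2 exceeded 1 FPKM only in leaf library 3 (1.52 FPKM), however. It was therefore not tested when at least 1 FPKM in 3 libraries was required. DN143182_c1_g14 went from 2.68 ± 0.423 FPKM in leaf and 1.38 ± 0.409 in stem to 0 in all mature fruit libraries, and 5 of its 7 calls were kept. The MYB82-like DN143182_c1_g11 stood at 2.53 ± 0.634 FPKM in leaf and at 0 to 0.339 in the fruit libraries, and 2 of its 6 calls were kept. Of the low unigenes, DN143182_c0_g2 kept 1 of 4 calls and DN143182_c1_g15 none of 2. DN143182_c1_g4, DN143182_c1_g7, DN143182_c1_g10 and DN143182_c1_g13 had no call. DN143182_c1_g13 varied within tissues, from 0 to 3.78 FPKM in stem. Pearson's r of the 12 with DN143182_c1_g1 ran from -0.59 (DN143182_c1_g6) to 0.69 (DN143182_c1_g14), as a description over the 15 libraries.

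**Figure D4:**
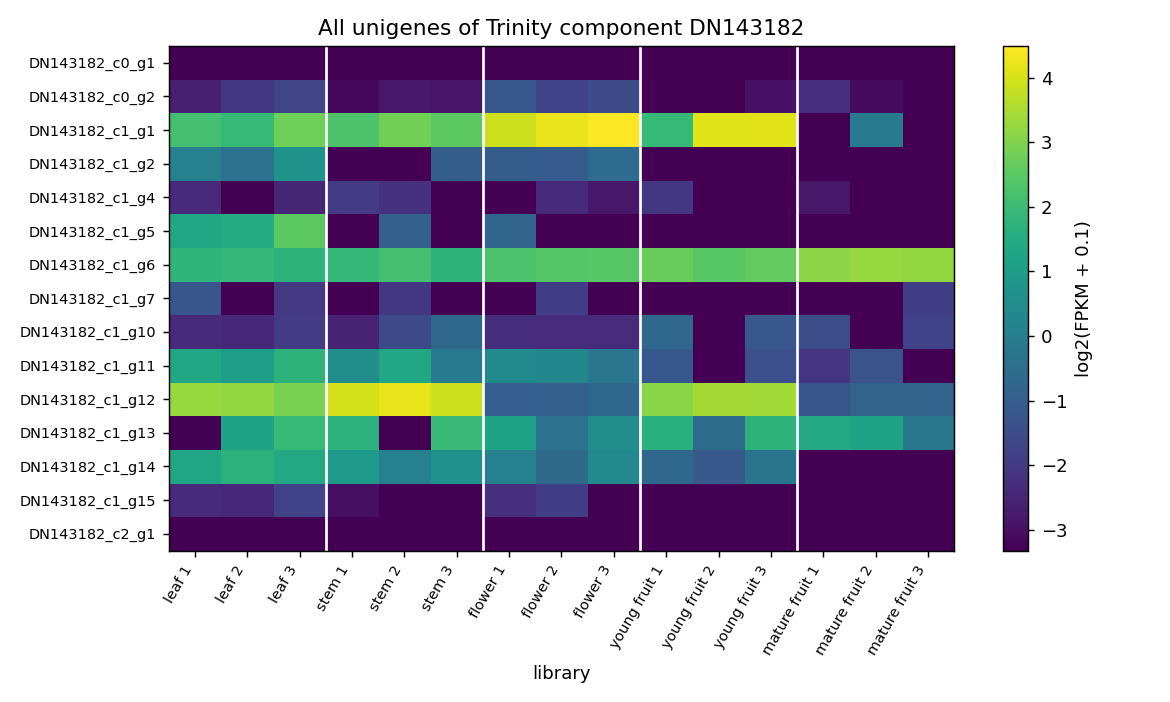
Heat map of log2(FPKM + 0.1) for DN143182_c1_g1 and the 14 other unigenes of Trinity component DN143182 (rows) in each of the 15 libraries (columns, white lines between tissues). Within a column, the brightest row is DN143182_c1_g1 in flower and in young fruit libraries 2 and 3. It is DN143182_c1_g12 in leaf, stem and young fruit library 1, and DN143182_c1_g6 in mature fruit. The row of DN143182_c1_g12 itself is even across young fruit, from 8.53 to 10.8 FPKM.

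Other MYBs with best matches linked to stress were compared in the pairs of tissues in which the 2 homologs stood out. The list holds 12 homologs of MYB44, MYB108, MYB1R1, MYB51, MYB96 and a MYB responsive to cold and abscisic acid, all tested. In stem against leaf 4 of the 12 were higher and 1 was lower, where 14.1% of all tested unigenes were called higher and 9.75% lower (23.9% in all). Of all 142 tested MYBs, 58 were higher and 15 lower in this pair. The median log2 fold change was 0.34 for the list, 0.69 for all tested MYBs and 0.05 for all tested unigenes. The MYB44-like DN144824_c3_g1 stood at 39.4 ± 4.72 FPKM in stem and 7.50 ± 0.727 in leaf (log2 fold change of 2.38, SE 0.15, adjusted p = 2.98e-08 by limma). DN143203_c0_g1, the MYB44-like unigene near DN137108_c0_g1 in pattern, was called as well, with 96.9 ± 1.44 FPKM in stem and 27.2 ± 0.117 in leaf. Its likeness to DN137108_c0_g1 rests on the same high stem level, so the call is not separate from it. DN138619_c0_g1, a homolog of MYB108, which is linked to stress and stamen maturation in Arabidopsis, stood at 1.80 ± 0.0538 and 0.445 ± 0.135 FPKM (1.83, SE 0.21, adjusted p = 1.07e-05 by limma), and lost its call at a pseudocount of 1. In the other direction went DN133642_c0_g1, a homolog of MYB1R1, a single-repeat MYB linked to drought in potato. It stood at 32.0 ± 0.974 FPKM in stem and 125 ± 1.89 in leaf (log2 fold change of -1.96, SE 0.09, adjusted p = 1.47e-09 by limma).

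In mature against young fruit 6 of the 12 stress-linked MYBs were lower and none was higher, where 22.1% of all tested unigenes were called lower and 8.06% higher (30.2% in all). Of all 142 tested MYBs, 8 were higher and 50 lower in this pair. The median log2 fold change was -1.18 for the list, -0.60 for all tested MYBs and -0.12 for all tested unigenes. DN144824_c3_g1 went from 20.9 ± 1.21 FPKM in the young stage to 1.18 ± 0.258 in the mature stage (log2 fold change of -4.06, SE 0.15, adjusted p = 1.62e-10 by limma). The MYB108 homolog DN146459_c2_g7 went from 3.73 ± 0.422 to 0.537 ± 0.322 FPKM (-2.70, SE 0.27, adjusted p = 1.85e-06 by limma). DN133642_c0_g1 went from 58.3 ± 1.44 to 12.7 ± 1.996 FPKM (-2.20, SE 0.09, adjusted p = 3.13e-10 by limma). Over all 10 pairs of tissues, 9 of the 12 were called at least once, as were 119 of the 142 tested MYBs and 69.8% of all tested unigenes.

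MYB homologs that act on the phenylpropanoid pathway, the source of lignin and flavonols, were compared in the same pairs, since MYB15 acts on that pathway in other species. Of 28 such unigenes 24 were tested. In stem against leaf 11 were higher and 2 lower, with a median log2 fold change of 1.11, where 14.1% of all tested unigenes were called higher and 9.75% lower and 58 of the 142 MYBs were higher and 15 lower. Of the 5 lignin activator homologs 4 were higher in stem. They included both MYB46 homologs, DN142862_c4_g3 with 5.31 ± 0.531 FPKM in stem and 1.32 ± 0.230 in leaf (log2 fold change of 1.94, SE 0.21, adjusted p = 5.52e-06 by limma) and DN146433_c2_g3 with 28.3 ± 1.58 and 9.89 ± 1.53 (1.52, SE 0.13, adjusted p = 5.32e-07 by limma). DN145021_c0_g7, a homolog of MYB86, stood at 25.3 ± 0.913 and 7.64 ± 0.0709 FPKM (1.71, SE 0.18, adjusted p = 4.62e-06 by limma). None of the 4 flavonol activator homologs was called. DN111034_c0_g1 (MYB12), named here after its values were seen, stood at 75.9 ± 3.47 FPKM in stem and 39.7 ± 4.83 in leaf. Its log2 fold change of 0.94 was under the threshold of 1 (SE 0.09, adjusted p = 2.46e-06 by limma). DN142862_c4_g4 of the same list went the other way, with a log2 fold change of -0.37 and no call.

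Of the 15 tested repressor homologs, 7 were higher and 2 lower in stem than in leaf. In this pair 14.1% of all tested unigenes were called higher and 9.75% lower, as were 58 and 15 of the 142 tested MYBs. DN144669_c3_g3, a homolog of MYB330 of snapdragon, stood at 27.1 ± 2.67 FPKM in stem and 1.94 ± 0.406 in leaf (log2 fold change of 3.75, SE 0.25, adjusted p = 7.17e-08 by limma). The MYB4 homolog DN138607_c0_g1 stood at 28.9 ± 1.19 and 2.27 ± 0.130 FPKM (3.62, SE 0.16, adjusted p = 1.17e-09 by limma). DN121791_c0_g1, the MYB nearest to DN137108_c0_g1 in pattern, passed as well (adjusted p = 2.17e-08 by limma), and no fold is given since leaf was listed at 0. Its likeness to DN137108_c0_g1 rests on the same high stem level, so the call is no separate support for that likeness. Median-of-ratios scaling changed the log2 fold changes of stem against leaf by a median of -0.17 over the unigenes tested under both scalings. Over all tested unigenes the calls went from 7241 higher and 4990 lower to 6171 higher and 5992 lower. The excess of higher calls over all unigenes therefore depends on the scaling. The stress-linked list stayed at 4 higher and 1 lower. The phenylpropanoid lists went from 11 higher and 2 lower to 10 higher and 2 lower.

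In mature against young fruit 1 of the 24 phenylpropanoid MYBs was higher and 10 were lower, with a median log2 fold change of -0.91. In this pair 8.06% of all tested unigenes were called higher and 22.1% lower, with a median of -0.12, and 8 of the 142 MYBs were higher and 50 lower, with a median of -0.60. Of the 5 lignin activator homologs 4 were lower. DN146433_c2_g3, also among the MYBs nearest to DN143182_c1_g1, went from 5.05 ± 0.492 FPKM in the young stage to 0.0886 ± 0.0139 in the mature stage (log2 fold change of -4.77, SE 0.13, adjusted p = 1.35e-11 by limma). Its likeness to DN143182_c1_g1 rests in part on the same low mature fruit level, so the call is not separate from it. DN145021_c0_g7 went from 9.52 ± 0.782 to 1.55 ± 0.496 FPKM (-2.59, SE 0.18, adjusted p = 6.06e-08 by limma). DN142862_c4_g3 went from 0.574 ± 0.0786 FPKM to 0 in all mature fruit libraries. The flavonol activator homolog DN142862_c4_g4 (MYB11) went from 1.29 ± 0.320 to 0.202 ± 0.0798 FPKM (-2.21, SE 0.20, adjusted p = 7.22e-07 by limma), and like DN142862_c4_g3 it lost its call at a pseudocount of 1.

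Of the 15 tested repressor homologs 5 were lower and 1 was higher in mature than in young fruit. In this pair 22.1% of all tested unigenes were called lower and 8.06% higher, as were 50 and 8 of the 142 tested MYBs. DN144669_c3_g3 went from 4.64 ± 0.694 FPKM down to 0.111 ± 0.0754 (log2 fold change of -4.55, SE 0.25, adjusted p = 7.46e-09 by limma). DN138607_c0_g1 went from 12.5 ± 2.86 to 0.458 ± 0.0938 FPKM (-4.48, SE 0.16, adjusted p = 1.15e-10 by limma). The MYB308-like DN142694_c0_g3 went from 3.47 ± 0.477 to 0.193 ± 0.0615 FPKM (-3.62, SE 0.16, adjusted p = 8.37e-10 by limma). The single higher unigene was DN142862_c0_g1, a further MYB4 homolog, with 26.4 ± 2.12 FPKM in young fruit and 84.3 ± 17.6 in mature fruit, which is named here after its values were seen. Over all 10 pairs of tissues, 21 of the 24 were called at least once, against the same 119 of 142 tested MYBs and 69.8% of all tested unigenes.

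**Figure D5:**
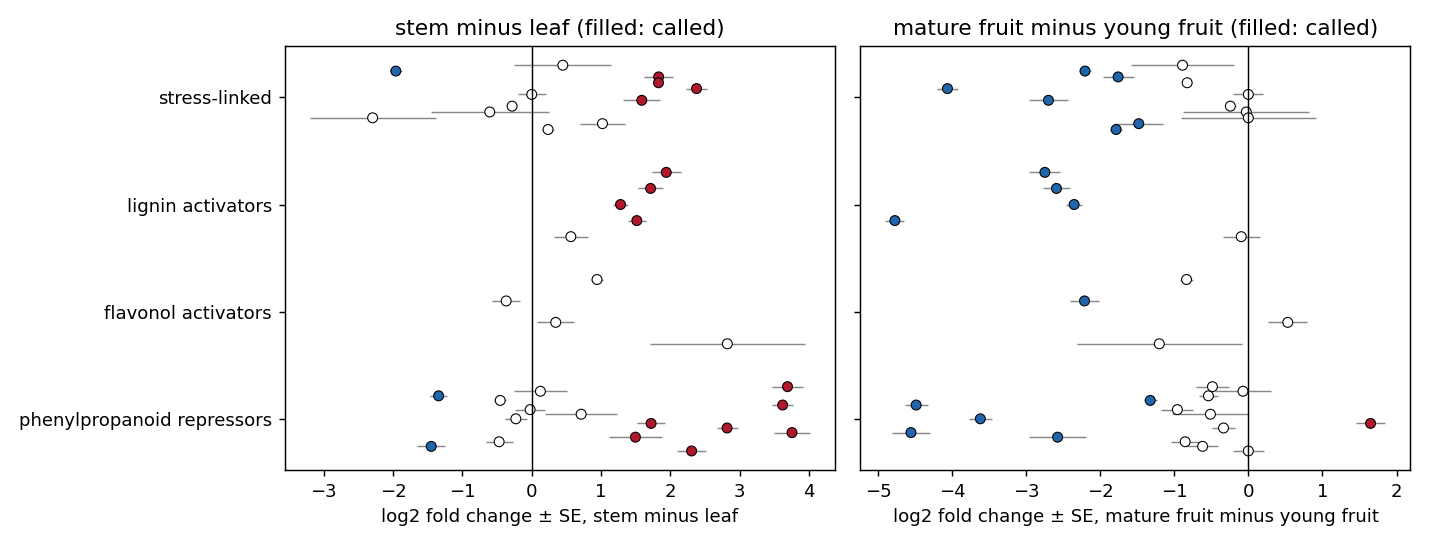
Log2 fold change on the log2(FPKM + 0.1) scale with its SE for each tested homolog of the stress-linked and phenylpropanoid lists, as stem minus leaf (left) and mature minus young fruit (right). Red points were called higher and blue points lower with limma, open points were not called, and on the right a single point is red against 16 blue ones.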

How the data were processed

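RNA was sequenced from 15 libraries, 3 per tissue, grouped by the tissue in their labels. The paper describes 3 biological replicates, whereas the labels describe 2 of 3 plants each. The authors assembled the trimmed reads with Trinity, aligned them back with Bowtie2 and deposited FPKM per unigene and library. Trimmomatic and RSEM are named in the submitters' processing notes. Tool versions: not given in the sources used here.

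Values were transformed to log2(FPKM + 0.1). A level above 0.1 FPKM in 3 or more libraries was required, which kept 51175 unigenes, both homologs and 142 of 163 MYBs included. They were fitted in R 4.3.3 by limma 3.58.1 with tissue as the only factor and a variance trend. The fit was also run on data simulated with normal errors on this scale. Such data meet the assumptions of limma by design, so that run does not show that these FPKM values meet them. Tables used Python 3.11.15, pandas 2.3.3 and numpy 2.4.6. Changes of low unigenes are understated on this scale.

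The 2 homologs, the lists and the pairs of tissues were chosen with earlier results of these data known. Named were the homologs, all unigenes of their components, the 5 most and 2 least similar MYBs of each, and up to 3 unigenes per list and pair with the largest fold change among those called without overlap. Alternatives were other pseudocounts, filters, scaling and thresholds, no trend, a replicate block, 6-library fits and left-out libraries.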

Additional observations from a re-analysis of the deposited data

How the results depend on the processing

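The difference of DN137108_c0_g1 between stem and leaf was 3.42 to 4.21 on the log2 scale with each library left out in turn, and 2.16 with a pseudocount of 1. For DN143182_c1_g1 the difference of mature from young fruit was -6.71 to -5.10 with each library left out, -7.88 with a pseudocount of 0.01 and -3.25 with 1, and that of flower from young fruit was 0.08 to 1.18. The r of DN137108_c0_g1 with DN121791_c0_g1 was 0.90 to 0.95 with each library left out, 0.80 with a pseudocount of 0.01 and 0.98 with 1, and that of DN143182_c1_g1 with DN146459_c2_g1 was 0.94 to 0.98. In stem against leaf the calls numbered 5 to 6 for the stress-linked list and 12 to 13 for the phenylpropanoid lists with each library left out. In mature against young fruit they numbered 5 to 6 and 11 to 13. The unigenes of component DN143182 called in any pair numbered 7 to 8, and 5 when at least 1 FPKM in 3 libraries was required. Of the 19 calls named from the lists 3 were lost, all at a pseudocount of 1. Of the 36 calls in the component 18 were lost under at least 1 alternative that still tested the unigene, 15 of them at a pseudocount of 1. Calls of unigenes that an alternative left untested are not in this count. No direction was reversed. With the replicate number as a block the counts stayed at 5 and 6 for the stress-linked list, 13 and 11 for the phenylpropanoid lists and 8 for the component, and 2 calls in the component were lost. Whether replicate numbers pair the libraries cannot be decided from these values. Deviations from tissue means correlated at -0.04 to 0.06 between libraries of the same number and at -0.07 to 0.06 between others. Even so, 10 of 15 libraries were nearest to their own number. The values near 0 of both homologs in mature fruit, and of DN137108_c0_g1 outside stem, are low, and no counting interval was computed for them since FPKM are not counts.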
